A study of Mus musculus with 5 samples.

Results

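The SOCS family holds 8 genes, Cish and Socs1 to Socs7, and encodes proteins that switch off signalling by cytokine and growth factor receptors. All 8 were taken as members by name, and every probe on the array whose transcript accession belonged to 1 of them was used. The 8 genes are among 32917 genes or other transcripts (features) tested, and they had 11 of the 56605 probes, with 2 probes each for Socs2, Socs4 and Socs6 and 1 for each other member. The question was which family members changed their RNA level in mouse colon after stimulation of the IL-11 receptor. Whole-colon RNA of wild-type C57BL/B6 mice was labelled with Cy3 and hybridised to 5 single-colour Agilent arrays, 1 mouse per array. The Control group had 2 mice, which the study's legend calls untreated and for which the labels name no treatment or vehicle. The NT-3N group had 3 mice, injected intravenously with NT-3N and sampled 3 hr later. NT-3N activates the IL-11 receptor and, per the methods of the study, was made by modifying human IL-11. The labels and the methods give the injected amount in different units, so it is not stated here. Since the Control mice were called untreated and no vehicle was named, injection and agonist cannot be told apart. Young adult mice were used per the study's legend.

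IL-11 binds its receptor chain, which pairs with the shared subunit gp130. JAK kinases bound to gp130 then phosphorylate STAT transcription factors, chiefly STAT3, which enter the nucleus and raise transcription of their targets. Some SOCS genes are such targets, so that a cytokine induces its own inhibitor. A SOCS protein binds phosphorylated tyrosines through its SH2 domain and recruits a ubiquitin ligase through its SOCS box, and SOCS1 and SOCS3 also block the JAK kinase itself. SOCS3 acts on gp130 and related receptors and is known in the gut as a brake on STAT3 in the epithelium.

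The promoters of 4 members, Socs1, Socs3, Socs4 and Cish, were found among RefSeq promoter sequences of GRCm38.p6. Those of the 3 cytokine-inducible genes among them are shown because they put the gene that rose beside 2 that gave no such rise. STAT dimers are known to bind the letters TTCNNNGAA, which read the same on both strands, and capitals mark each match. Each run gives the 250 bases before the annotated start, 5′ to 3′ on the strand of the gene.
Socs3, chr11:117969367-117969616, minus strand: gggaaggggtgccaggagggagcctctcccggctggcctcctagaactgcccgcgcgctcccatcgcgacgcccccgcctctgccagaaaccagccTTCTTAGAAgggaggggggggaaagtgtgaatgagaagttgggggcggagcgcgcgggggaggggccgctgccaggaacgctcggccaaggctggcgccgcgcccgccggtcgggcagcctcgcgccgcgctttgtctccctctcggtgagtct
Socs1, chr16:10785537-10785786, minus strand: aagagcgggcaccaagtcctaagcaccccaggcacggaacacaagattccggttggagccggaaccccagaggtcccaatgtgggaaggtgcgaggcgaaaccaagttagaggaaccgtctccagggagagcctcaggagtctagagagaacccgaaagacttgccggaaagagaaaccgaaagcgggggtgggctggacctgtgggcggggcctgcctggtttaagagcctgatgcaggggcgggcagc
Cish, chr9:107296409-107296658, plus strand: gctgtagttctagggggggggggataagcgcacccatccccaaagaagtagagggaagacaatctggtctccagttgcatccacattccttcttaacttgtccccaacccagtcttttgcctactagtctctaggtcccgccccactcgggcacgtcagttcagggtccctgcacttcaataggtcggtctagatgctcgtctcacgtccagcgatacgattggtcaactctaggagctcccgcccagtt

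The Socs3 promoter held 1 match, TTCTTAGAA, whose first base lies at position -154 from the start. Within the window of 300 bases that ends 50 bases after the start, Cish held 2 matches, both after the start, TTCCTGGAA from position 1 and TTCTTGGAA from position 12. Socs1 and Socs4 held 0 in that window. Of all 32851 promoters in the table, 2726 or 8.3% held the letters in the same window, and 7.02% held them before the start. A match of letters describes the sequence and shows no binding. GC content before the start was 71.6% for Socs3, 70.4% for Socs4, 61.2% for Socs1 and 55.2% for Cish.

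Socs3 was the single family member that rose after NT-3N, by 6.52-fold. Its normalized log2 signal was 10.63 and 10.11 in the Control mice and 12.88, 13.21 and 13.14 in the NT-3N mice. The 3 NT-3N arrays lay far above both Control arrays, and the lowest of them stood 2.25 log2 units, or 4.75-fold, over the higher Control array. The processed signal before scaling showed the same order, at 1405 and 1138 in Control against 6622, 10967 and 9694 after NT-3N. Group means of the log2 signal were 10.37 ± 0.37 (SD, n = 2) and 13.08 ± 0.18 (SD, n = 3). NT-3N over Control thus came to 2.71 log2 units (SE 0.18, 95% interval 2.28 to 3.13, or 4.85- to 8.78-fold; limma, adjusted p = 0.0087). By log2 fold change Socs3 ranked 57 of the 32917 features tested, 20 without Control replicate 1 and 144 without Control replicate 2. Among the 29830 features well above background on all 5 arrays it ranked 13. Leaving out NT-3N replicate 2 gave an adjusted p of 0.062 in limma, and leaving out NT-3N replicate 3 gave 0.12, while the log2 fold change stayed between 2.45 and 2.97 when any 1 array was left out. The call was also lost with no filter on dim probes (adjusted p = 0.091), with no intensity trend (0.073) and with the replicate number as a block (0.46). NT-3N replicate 3 has no Control of the same number, so the block fit draws its fold changes from the other arrays. They are thus the fold changes without NT-3N replicate 3, on fewer residual degrees of freedom. In whole tissue, fewer cells of a type and less RNA per cell cannot be told apart, and the same holds for more of either.

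**Figure D1:**
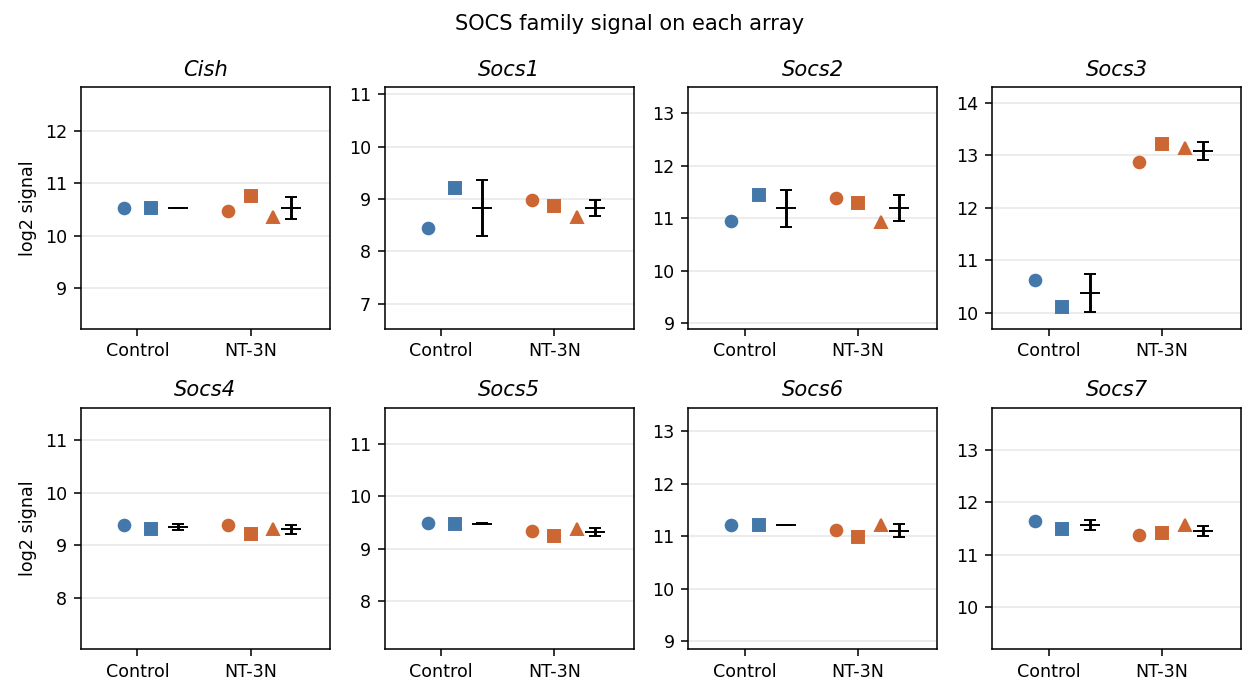
Normalized log2 signal of the brightest probe of each SOCS family gene on each of the 5 arrays, with Control and NT-3N arrays side by side and bars for the mean ± SD of each group (n = 2 and n = 3). Every panel spans the same number of log2 units, so equal distances are equal fold changes. Socs3 moves from 10.11 and 10.63 to between 12.88 and 13.21, while the points of the other 7 genes stay close to their own level.

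The count of calls in the family was 1 of 8 genes, against 47 of 32917 features or 0.143% over the whole array. As the family was chosen with earlier results of these data known, such shares are a description. Split by direction, 1 of 8 members was higher, against 0.125% of features, and 0 of 8 were lower, against 0.0182%. At an unadjusted p under 0.05 the family still counted 1 of 8, where 9.62% of all features passed. Groups did not overlap for 2 of 8 members, Socs3 and Socs5, and for 28.4% of all features. The other 7 members had log2 fold changes from -0.16 to 0.0086, and 2 of them were nominally higher and 5 lower. Their median was -0.038 and their median absolute change 0.038, against a median absolute change of 0.15 over all features. The 95% intervals of all 7 lay within 0.680- to 1.48-fold, and the adjusted p ran from 0.666 to 0.995 (limma). Over all 8 members the median log2 fold change was -0.022, beside -0.019 for all features.

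Cish, Socs1 and Socs2 are, with Socs3, the members known best as immediate targets of cytokine signalling. Cish, which binds receptors that use STAT5 and blocks them, had log2 signals of 10.54 and 10.53 in Control and 10.47, 10.76 and 10.36 after NT-3N. The NT-3N arrays lay on either side of the Control arrays. Group means were 10.54 ± 0.0029 (SD, n = 2) and 10.53 ± 0.20 (SD, n = 3). The difference of -0.0068 log2 units had an interval of 0.794- to 1.25-fold. Both the mean and the interval of Cish thus stayed close to the Control level.

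Socs1, the main inhibitor of interferon signalling, had log2 signals of 8.45 and 9.20 in Control and 8.97, 8.86 and 8.66 after NT-3N. All 3 NT-3N values fell between both Control values, so the spread of this gene lay mainly among the Control mice. The means were 8.82 ± 0.54 (SD, n = 2) and 8.83 ± 0.16 (SD, n = 3), and the log2 fold change of 0.0068 had an interval of 0.680- to 1.48-fold. On the log2 scale this was the widest interval in the family.

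Socs2, a regulator of growth hormone signalling that is known as a STAT5 target, was measured by 2 probes. The brighter gave 10.94 and 11.44 in Control and 11.38, 11.30 and 10.92 after NT-3N. The dimmer gave 9.95 and 10.43, then 10.34, 10.33 and 10.04. Both probes were low in Control replicate 1 and NT-3N replicate 3 and higher in the other 3 arrays, an order that does not follow the groups. For the brighter probe the log2 fold change was 0.0086, with an interval of 0.725- to 1.40-fold, and for the dimmer it was 0.046 with a 95% interval of -0.38 to 0.47 on the log2 scale. Socs1, like the dimmer Socs2 probe, was lowest in Control replicate 1. Markers of other cell types differed between the same 2 Control mice too. The summed linear signal of 5 adipocyte markers spanned 5929 to 19297 in Control and 2117 to 13039 after NT-3N, and Adipoq had log2 signals of 9.26 and 5.21, then 8.76, 7.55 and 4.32. The sum over 5 B cell markers spanned 1474 to 4446 and 4084 to 4845. Its members did not move together between the Control mice, with Cd79b at 11.20 and 9.20, Ms4a1 at 4.95 and 6.53 and Cd22 at 9.47 and 9.17. The part of these cells in the Socs1 and Socs2 values was not tested.

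Socs4 and Socs5, a closely related pair with long N-terminal regions that are known to act on the EGF receptor, changed little in level. Socs4 gave 9.38 and 9.31 in Control and 9.39, 9.23 and 9.31 after NT-3N, so the groups overlapped. Its log2 fold change was -0.038 by the brighter probe, with an interval of 0.816- to 1.16-fold, and -0.11 by the dimmer (limma, adjusted p = 0.82 with every probe tested). Socs5 gave 9.49 and 9.47 in Control and 9.35, 9.24 and 9.38 after NT-3N. Each NT-3N value lay under both Control values, but the distance was small. The difference for Socs5 was -0.16 log2 units (SE 0.10), with an interval of 0.754- to 1.06-fold, and it did not pass the test (limma, adjusted p = 0.666).

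Socs6 and Socs7, known for binding KIT and the insulin receptor pathway, likewise did not pass. Socs6 gave 11.21 and 11.21 in Control and 11.11, 10.98 and 11.22 after NT-3N, for a log2 fold change of -0.10 and an interval of 0.785- to 1.11-fold. The dimmer Socs6 probe gave -0.11. Its arrays overlapped between groups too, at 9.24 and 9.41 against 9.26, 9.16 and 9.26. Socs7 gave 11.65 and 11.50 in Control and 11.38, 11.42 and 11.57 after NT-3N, for a log2 fold change of -0.12 and an interval of 0.778- to 1.09-fold. One NT-3N array lay between the Control arrays.

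**Figure D2:**
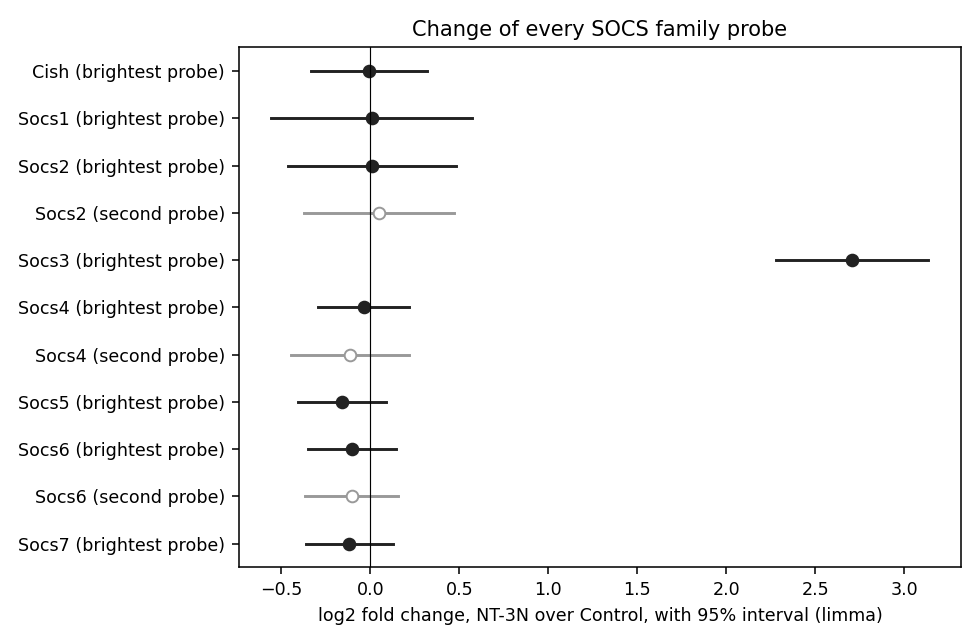
Log2 fold change of NT-3N over Control for all 11 SOCS family probes, with 95% intervals from limma; filled points are the brightest probe of each gene and open points the second probe of Socs2, Socs4 and Socs6. The interval of Socs3, 2.28 to 3.13, stands clear of all others, each of which includes 0.

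The members also differed in how closely the mice of a group resembled each other. The residual SD, the pooled spread of log2 signal within groups, was lowest for Socs5 at 0.0612 and Socs4 at 0.0733. Socs6 and Socs7 followed at 0.0989 and 0.10. Among the inducible members it was 0.166 for Cish, 0.256 for Socs3, 0.285 for Socs2 and 0.335 for Socs1. The median over all features was 0.179, and 21.0% of features varied more than Socs1, while 91.4% varied more than Socs5. With 3 residual degrees of freedom these spreads are themselves imprecise, and their difference was not tested.

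The contrast between Socs3 and the rest was also read within each mouse, as the log2 signal of Socs3 minus that of another member, which removes any shift shared by both probes on an array. The NT-3N minus Control change in that difference was smallest against Socs2 and Socs1, at 2.70 each, and largest against Socs5, at 2.86. Against Cish it was 2.71, against Socs4 2.74, against Socs6 2.81 and against Socs7 2.82. These correspond to 6.48- to 7.28-fold more change in Socs3 than in the other member. All 7 pairs hold the same Socs3 values, so the differences restate its rise and are given as a description, with no test.

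**Figure D3:**
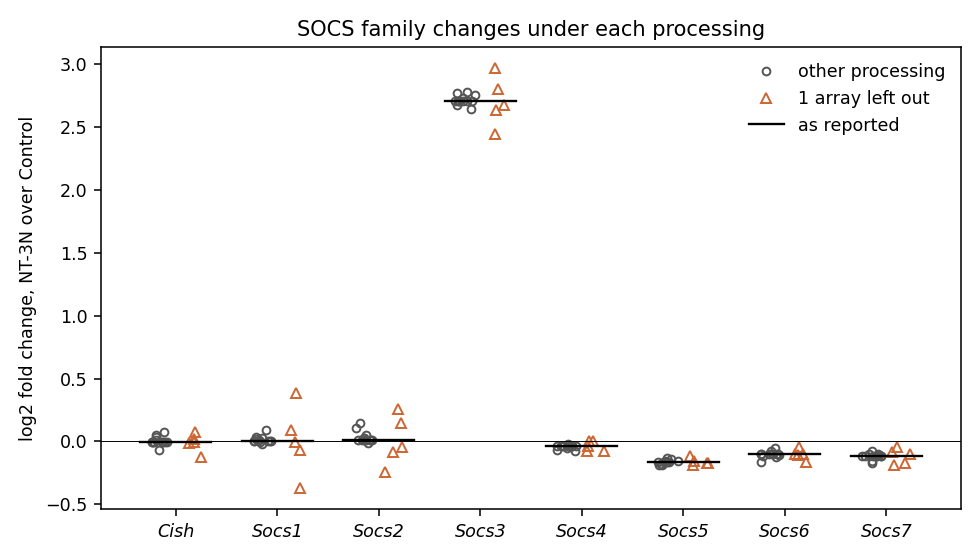
Log2 fold change of each SOCS family gene as reported (black line), under the other ways of processing (circles) and with 1 array left out (triangles). Socs3 stays between 2.45 and 2.97 in all 18 alternatives, and the others cluster around 0.

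Genes that share the machinery of the family were counted next. In all, 116 other genes from 8 lists were tested, of which 2, both higher, had an adjusted p under 0.05 (1.72%, against 0.143% of all features). The lists were chosen with earlier results of these data known, so the higher share is a description and no independent result. The 8 genes listed for the ligase that the SOCS box recruits, its subunits and proteins that work with it, had 0 of 8 called. Among them were elongins and the cullin Cul5, and log2 fold changes ran from -0.16 to 0.13. Other proteins with a SOCS box had 20 of 26 genes tested and 0 called, with a median of -0.10. The widest change there was in Asb2, which targets filamins for degradation, at -1.02 with a standard error of 0.13 (limma, adjusted p = 0.074). Its log2 signal was 9.37 and 9.23 in Control and 8.11, 8.35 and 8.37 after NT-3N. Asb2 thus did not overlap between groups but missed the threshold, as did Spsb2 at -0.39 (adjusted p = 0.24) and Asb3 at 0.30 (adjusted p = 0.48).

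Other inhibitors of the pathway, among them phosphatases and PIAS proteins, had 0 of 12 called, with 6 higher, 6 lower and a median log2 fold change of -0.0039. Usp18, an inhibitor of the type I interferon receptor, stood at -1.93 with a standard error of 0.65 (limma, adjusted p = 0.44). The phosphatases Ptpn2 and Ptpn1 had 0.33 (adjusted p = 0.37) and 0.23 (adjusted p = 0.43). Socs3 was thus the one gene called among the 8 SOCS members and these 12.

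Receptors of the gp130 group, JAKs and STATs, on which SOCS3 acts, had 2 of 18 called. Osmr, the oncostatin M receptor chain that pairs with gp130, had log2 signals of 8.92 and 8.85 in Control and 10.80, 11.08 and 11.05 after NT-3N, a rise of 2.09 with a standard error of 0.12 (limma, adjusted p = 0.0057). Stat3, which activates transcription of Socs3, had 12.84 and 12.80, then 13.61, 13.58 and 13.48, a rise of 0.74 with a standard error of 0.077 (limma, adjusted p = 0.043). Both genes thus lay above both Control mice in each of the 3 NT-3N mice, as Socs3 did. Osmr was called in 13 of 18 alternatives, losing the call without NT-3N replicate 2 (limma, adjusted p = 0.051) or NT-3N replicate 3 (0.079), with no filter (0.072), with no trend (0.057) and with the replicate block (0.35). Stat3 was called in 10 of 18. It lost the call without Control replicate 1 (limma, adjusted p = 0.18), Control replicate 2 (0.16), NT-3N replicate 2 (0.19) or NT-3N replicate 3 (0.20), with no filter (0.11), no trend (0.18), the replicate block (0.49) and the mean of the probes (0.057). The others named by rule did not pass. They were Jak3 at 0.84 (adjusted p = 0.077), Il6st, which encodes gp130, at 0.80 (adjusted p = 0.17), Il6ra at -0.35 (adjusted p = 0.35; -0.064 with the mean of its probes) and Jak1 at 0.21 (adjusted p = 0.50). Il11ra1, the receptor chain that NT-3N addresses, was not named by the rule and had -0.20 (adjusted p = 0.59). The 21 other receptors that SOCS proteins inhibit had 0 called, 0 at an unadjusted p under 0.05, and log2 fold changes from -0.54 to 0.33.

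Cytokines and hormones known to induce SOCS genes had 15 of 23 tested and 0 called. Il7 stood at 0.97 (limma, adjusted p = 0.17), Thpo at 0.65 (adjusted p = 0.38; 0.21 with the mean of its probes) and Il11 itself at 0.14 (adjusted p = 0.84). Il6 and Lif, named after their values were seen, were each well above background on only 2 arrays, so no fold is given. For Il6 these were 2 NT-3N arrays and neither Control array. Lif went the other way, with log2 signals of 4.14 and 3.95 in Control and 2.75, 3.07 and 2.96 after NT-3N. Targets of STAT5, the factor that Cish and Socs2 restrain and answer to, had 0 of 11 called and a median of 0.18. The list does not separate targets that STAT5 raises from those it lowers, so neither a rise nor the median reads STAT5 activity. Bcl6, a transcriptional repressor, came closest at 0.89 with a standard error of 0.10 (limma, adjusted p = 0.054). Its adjusted p spanned 0.017 to 0.49 across the 18 alternatives, with a call in 6. Its values were 10.74 and 10.80 in Control and 11.67, 11.78 and 11.54 after NT-3N. Pim1 had 0.54 (adjusted p = 0.43) and Bcl2l1 -0.26 (adjusted p = 0.51).

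**Figure D4:**
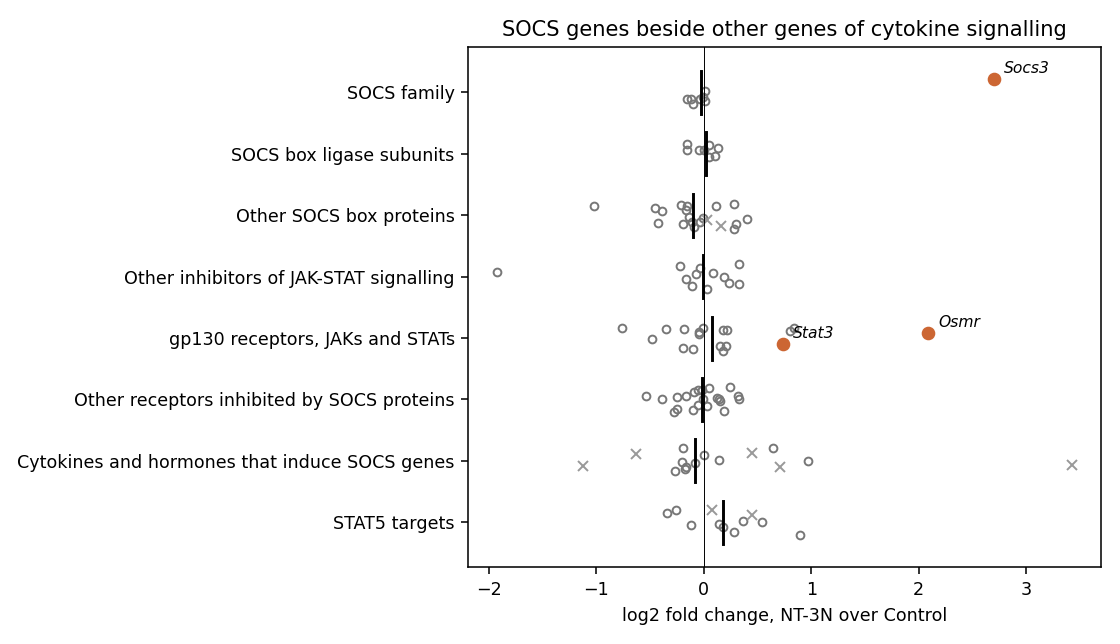
Log2 fold change of NT-3N over Control for each tested gene, by list; filled points have an adjusted p under 0.05 in limma, open circles do not, and crosses mark genes not called and not well above background on all 5 arrays, whose fold changes are not reliable. Black bars are list medians. Socs3, Osmr and Stat3 are the filled points, and the bars of the 8 lists drawn lie near 0, from -0.10 to 0.18.

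The array as a whole was searched for genes whose signal moved across the 5 mice most like Socs3. After each gene was centred on its own mean, the root mean square difference from Socs3 was taken over the 5 arrays for 16733 named genes well above background on all of them. Il33, a cytokine of the IL-1 family, was closest at 0.165 log2 units, with a log2 fold change of 2.61 (limma, adjusted p = 0.0057). Its signals were 7.30 and 7.25 in Control and 9.65, 9.97 and 10.05 after NT-3N. Il33 and Socs3 were alike in having NT-3N replicate 1 as the lowest of the NT-3N mice. The same held for Osmr, Il6st and Jak1, and for Gm4827 and Krtap11-1 below. Stat3 and Jak3, and Serpina3m and Slc10a6 below, had NT-3N replicate 1 as the highest, and Il6ra had it in between. Next came the predicted gene Gm4827 at 0.215, Krtap11-1, a keratin-associated protein gene, at 0.258, Serpina3m at 0.294 and Slc10a6, a carrier of sulfated steroids, at 0.296. Of these, Krtap11-1 (log2 fold change 3.18, adjusted p = 0.0057) and Slc10a6 (2.20, adjusted p = 0.027) also passed the test. Gm4827 (2.54, adjusted p = 0.083) and Serpina3m (2.64, adjusted p = 0.053) did not, although Serpina3m was called in 10 and Gm4827 in 4 of 18 alternatives. Serpina3m has close paralogues whose RNA its probe may share. Without NT-3N replicate 2 or NT-3N replicate 3, Il33 and Krtap11-1 each had an adjusted p of 0.051 and 0.079, and Slc10a6 had 0.13 and 0.20 (limma). With no filter Il33 and Krtap11-1 had 0.072 and Slc10a6 0.12, with no trend Il33 had 0.057 and Slc10a6 0.10, and with the replicate block the adjusted p was 0.35, 0.35 and 0.46 for Il33, Krtap11-1 and Slc10a6. With normexp background correction the log2 fold changes were smaller, at 1.68 for Krtap11-1, 1.34 for Slc10a6 and 1.22 for Gm4827. Likeness was measured on the same 5 arrays that hold the group difference and is no measure apart from it.

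**Figure D5:**
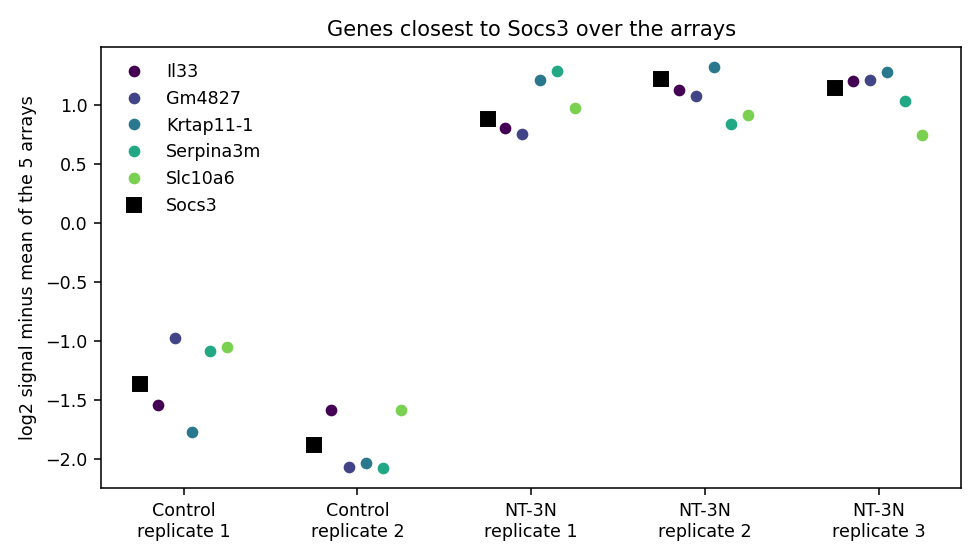
Log2 signal minus the gene's mean over the 5 arrays, for Socs3 (squares) and the 5 named genes nearest to it (circles, set side by side within each array). All 6 genes are below 0 in both Control mice and above 0 in the 3 NT-3N mice.

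On each of the 5 arrays all 11 SOCS probes stood well above background, with no saturated and no outlier spot, and 70.6% to 72.9% of probes passed that mark per array. Epithelial markers of colon were present on all arrays, 9 of 9, and 0 of 59 tested markers of 11 cell types had an adjusted p under 0.05 (limma), with 7 at an unadjusted p under 0.05. All 6 smooth muscle markers were nominally lower, and their summed linear signal was 445674 to 460166 in Control and 326964 to 416455 after NT-3N. Of 6 neutrophil markers, S100a8 and S100a9 were well above background on the 3 NT-3N arrays and on neither Control array, Cxcr2 on 0 arrays, Retnlg on 1, and Ly6g was not found by symbol. The summed signal of the tested neutrophil markers was 76990 to 78009 in Control and 64038 to 77437 after NT-3N. Nearly all of it came from the Csf3r probe, which read 16.25 and 16.23 in the Control mice. Whether that probe reads neutrophil RNA was not tested, so the sum is not taken as a measure of neutrophils. Among 5 B cell markers, Ms4a1 had 4.95 and 6.53 in Control and 9.54, 9.13 and 9.51 after NT-3N (adjusted p = 0.059). The part of such cells in the Socs3 value was not tested.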

How the data were processed

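The authors read the 5 arrays with Agilent Feature Extraction 11.0.1.1. Each deposited scanner file gives the processed intensity of a spot (background subtracted, detrended, no scaling across arrays), and other columns flag spots that are outliers, saturated or above background. Deposited log2 values of 37380 probes, which matched quantile-normalized log2 processed signal (r from 0.999983 per array), served as an alternative.

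Here, control spots and outlier spots were dropped, the processed intensity was taken to log2, spots of a probe were averaged, and arrays were quantile-normalized. Probes were kept where well above background on at least 2 arrays. Accessions were matched to RefSeq symbols of GRCm38.p6 (32994 of 56605 probes; the file headers name another build for the design), and genes were read by their brightest probe, giving 32917 features, 17942 with a symbol. NT-3N was set against Control in limma 3.58.1 under R 4.3.3 (lmFit, eBayes with trend, two-sided). P-values were adjusted by Benjamini-Hochberg across the whole set of features, with a threshold of 0.05. The study's methods name a local-pooled-error test, which was run as an alternative.

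Members and gene lists were chosen with earlier results of these data known. From each list, called genes were named, then up to 4 with the largest change among those well above background on all arrays, at an unadjusted p under 0.05 and without overlap between groups. The 5 named genes nearest to Socs3 were added.

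On simulated data for NT-3N against Control (32917 features, 5 runs of 200 changed features), 4-fold changes were recovered by limma in 71.8% and 2-fold changes in 29.2% of cases, with 6.13% false calls. The local-pooled-error test recovered 83.2% and 42.6%, with 54.4% false calls. The number of arrays limits the precision. All 5 arrays lay on 1 slide. Alternatives covered scaling, background correction, filters, trend and robust variance, weights per array, a block for the replicate number, how several probes of a gene were treated, another test, and each array left out. The comparison of member proteins was not run. Of the gene lists counted in the total, 1 is not reported here.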

Additional observations from a re-analysis of the deposited data

How the results depend on the processing

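Over 18 alternatives, Socs3 kept its direction in all 18 and an adjusted p under 0.05 in 13, with a log2 fold change of 2.45 to 2.97 when 1 array was left out. It lost the call with no filter on dim probes (log2 fold change 2.71, adjusted p = 0.091 in limma), with no intensity trend (2.71, adjusted p = 0.073) and without NT-3N replicate 2 or NT-3N replicate 3. With the replicate number as a block it had 2.68 (adjusted p = 0.46), and no feature was called by limma, while 2488 had an unadjusted p under 0.05. The block fit gives the fold changes without NT-3N replicate 3, which has no Control of the same number. Deviations from the group mean correlated at 0.13 and 0.036 over the 2 pairs of equal number. With 2 Control mice these deviations mirror each other, so the values cannot decide whether replicate numbers pair the mice. The family count of 1 called member was 0 with no filter, no trend or the replicate block, and 0 to 1 when 1 array was left out. The other 7 members were called in 0 of 18 alternatives, and Socs5, Socs6 and Socs7 kept their sign in all 18.

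The near-zero changes of the others turned sign. Cish was at 0.0097 with 75th percentile scaling, 0.032 with median scaling, 0.048 with array weights and 0.077 with the replicate block, and between -0.12 and 0.077 when 1 array was left out. Socs1 was at -0.0023 with 75th percentile scaling and -0.020 with array weights, and between -0.37 and 0.39 when 1 array was left out. Socs2 was at -0.014 with array weights and between -0.24 and 0.26 when 1 array was left out. Socs4 lay between -0.078 and 0.0023 when 1 array was left out, and Il11 between -0.035 and 0.32. The other pathway genes and the genes most like Socs3 that are named, Il6 and Lif apart, kept their sign in all 18 alternatives, but sizes moved by over 1.5 times for some. With the mean of the probes Il6ra had -0.064 and Thpo 0.21. Without Control replicate 1 Bcl2l1 had -0.14 and Pim1 0.36, without Control replicate 2 Thpo had 0.43, without NT-3N replicate 1 Il11ra1 had -0.13, and without NT-3N replicate 2 Usp18 had -1.27.

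Counts over the array depended on the setting. Features called higher were 2 with no filter, 2 with no trend, 124 with array weights, 0 with the replicate block and 192 with the local-pooled-error test, and 0 (without NT-3N replicate 3) to 114 (without Control replicate 2) when 1 array was left out. Features called lower were 11 with the deposited log2 values, 0 with no filter, 13 with the filter on all arrays, 0 with no trend, 15 with the robust fit, 46 with array weights, 0 with the replicate block, 16 with every probe and 156 with the local-pooled-error test, and 0 to 16 when 1 array was left out. Other pathway genes called were 0 with no filter, 0 with no trend, 8 with array weights, 0 with the replicate block, 1 with the mean of probes and 8 with the local-pooled-error test, and 0 to 5 when 1 array was left out. The cause was not tested. The comparison of member proteins was not run.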
